A study of Homo sapiens with 8 samples.

Results

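The RUNX family of transcription factors, RUNX1, RUNX2 and RUNX3, was examined at sites where capped nascent RNA starts in one growth state of IMR90 cells and not, or far less, in the other. IMR90 is a human lung fibroblast line. The 4 RUNX sites were chosen by their place in 2 deposited lists, which give a measured fold between senescent and proliferating cells, and by a midpoint inside a RUNX gene or within 1 kb upstream of it. They were 4 of 1249 sites, namely 3 of the 849 sites of the senescent list and 1 of the 400 sites of the proliferating list, called senescent-only and proliferating-only here. RUNX1 held 2 senescent-only sites, RUNX3 held 1 senescent-only site and RUNX2 held 1 proliferating-only site. Folds began at 10.2 for senescent-only sites and at 10.04 for proliferating-only ones, and sites with less difference were not analysed here. List, fold and read numbers at the RUNX sites are therefore a description, and no test was made on them.

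All cells were of the same line and carried no transgene or drug treatment in the labels; senescence was reached by serial passage until growth stopped. PRO-cap, which sequences the capped 5′ ends of RNA that engaged polymerases extend in isolated nuclei, was done on 3 senescent samples (population doubling 76 for replicate 1 and 67 for replicates A and B) and on 3 proliferating samples (population doubling 23 for replicate 1 and 26 for A and B). There was also 1 PRO-seq sample of senescent cells at population doubling 76 and 1 of proliferating cells at population doubling 20, which were not analysed here. The lists give 1 value per site and no value per sample, so nothing below carries a spread between cultures, and no label says whether the replicates were separate cultures. Of 9 fibroblast marker genes, 1 held a site (PDGFRA, a growth factor receptor), but lists of differing sites cannot show whether a marker is expressed, so the cell type was not checked.

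RUNX proteins bind DNA through the Runt domain, a conserved fold near their amino end, and need the partner CBFB for stable binding. The rest of the protein recruits coactivators or corepressors. RUNX1 is known above all for blood stem cell formation, RUNX2 for bone and mesenchymal differentiation and RUNX3 for T cells, sensory neurons and the response to TGF-β. Each gene is transcribed from a distal and a proximal promoter, which give different amino ends. Nascent RNA can also start far from promoters, at enhancers within introns.

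The sequences of the 4 sites are shown because they carry what the lists say about these loci, start sites inside introns, and because only 1 of them holds a match to the RUNX motif itself. Each is the 200 bases of GRCh37 centred on the 150 bases of the deposited site, on the plus strand. Capitals would mark a RUNX motif (TGTGGT), an AP-1 motif (TGACTCA or TGAGTCA) or a TATA box (TATAAA) on either strand, and mark 1 RUNX motif.

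RUNX1 site 1, chr21:36180976-36181175: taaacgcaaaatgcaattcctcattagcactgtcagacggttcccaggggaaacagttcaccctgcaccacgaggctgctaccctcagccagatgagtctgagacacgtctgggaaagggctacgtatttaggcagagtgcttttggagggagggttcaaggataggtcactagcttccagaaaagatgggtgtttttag
RUNX1 site 2, chr21:36181158-36181357: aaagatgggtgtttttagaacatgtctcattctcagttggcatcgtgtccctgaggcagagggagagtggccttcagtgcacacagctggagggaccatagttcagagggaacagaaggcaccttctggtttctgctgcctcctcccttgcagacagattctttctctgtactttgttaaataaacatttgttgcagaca
RUNX3, chr1:25237596-25237795: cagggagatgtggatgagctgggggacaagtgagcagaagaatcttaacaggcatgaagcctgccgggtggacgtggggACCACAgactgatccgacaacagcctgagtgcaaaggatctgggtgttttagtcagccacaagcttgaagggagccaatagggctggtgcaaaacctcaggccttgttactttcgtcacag
RUNX2, chr6:45501215-45501414: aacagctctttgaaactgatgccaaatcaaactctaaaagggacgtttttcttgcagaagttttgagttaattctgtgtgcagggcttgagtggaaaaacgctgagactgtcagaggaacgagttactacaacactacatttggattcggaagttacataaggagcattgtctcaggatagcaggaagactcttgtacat

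The sites in the 3 genes stood on different sides of the comparison. Whether transcription of the genes as a whole differed between the states cannot be read from them. RUNX1, an essential factor of definitive blood formation, and RUNX3 had starts that were nearly or wholly limited to the senescent data, and RUNX2, which directs osteoblast formation, had one that was limited to the proliferating data. To place this against other genes, 411 of 20163 protein-coding genes (2.04%) held a senescent-only site and 220 (1.09%) held a proliferating-only site by the same rule. Long genes held one more often. Among genes of 50 kb or more the shares were 5.2% and 2.43%, and among genes of 100 kb or more they were 7.77% and 3.63%. The annotated spans of RUNX1, RUNX2 and RUNX3 were 1217 kb (chr21:36160098-37376965, minus strand), 336.2 kb (chr6:45295894-45632086, plus strand) and 65.61 kb (chr1:25226002-25291612, minus strand), in GRCh37. The choice of the genes used the lists, so nothing is read from 2 and 1 of 3 genes against these shares.

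The deposited fold can be decoded into whole counts. Each count is taken here as 1 read, an assumption that the sources used here do not state and that the intervals below rest on. On that reading a senescent read counts 32.8 and a proliferating read 39.4 in the deposited scale. A fold is the sum for one state plus 1, divided by that for the other plus 1. For each RUNX site exactly 1 pair of whole reads matched its fold, with up to 60 reads of the other state tried. Intervals on reads are exact Poisson 95% intervals and cover counting error only; PCR copies were not told apart from separate molecules.

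The first RUNX1 site had 338 reads in senescent cells (303 to 376) and 9 in proliferating cells (4.12 to 17.1), and its deposited fold of senescent over proliferating was 31.2. At the second site there were 177 reads in senescent cells (152 to 205) and 1 in proliferating cells (0.0253 to 5.57), with a fold of 144. The sites lay at 36181001 to 36181150 and 36181183 to 36181332 of chromosome 21, 32 bases apart, so that together they covered 332 bases. RUNX1 thus had reads in both states at this place, at unlike levels. Whether the few proliferating reads mark true starts was not tested.

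The order of the RUNX1 sites turned round with the measure. Site 2 had the higher fold, by 4.61 times, while site 1 had 1.91 times as many senescent reads. Setting the 2 steps as scaling factors, the ratio of senescent over proliferating level was 31.3 at site 1 (16.3 to 69.0, exact conditional interval) and 148 at site 2 (26.1 to 5860). These intervals overlap, since the ratios rest on 9 and 1 proliferating reads. Summed over both sites, 515 reads in senescent cells (471 to 561) stood against 10 in proliferating cells (4.80 to 18.4), a scaled ratio of 42.9 (23.2 to 90.0).

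The RUNX3 site, at 25237621 to 25237770 of chromosome 1, had 186 reads in senescent cells (160 to 215) and 0 in proliferating cells, a count that allows up to 3.69 reads. Its deposited fold of 6104 was the 6th highest of the 849 senescent-only sites. With no proliferating read, that fold is set by the senescent reads and the added 1. Against a floor of 3 reads per site, and with the 186 reads taken as counted, the scaled senescent level was at least 51.7-fold higher. An exact conditional 95% interval of the ratio, which counts the error of both states and is two-sided, began lower, at 41.6. Both values are lower bounds with no upper limit, and both fall within the interval of the RUNX1 sites together. The deposited fold of 6104 for RUNX3 rests on a count of 0 and the added 1. It therefore cannot be set directly against the folds of 31.2 and 144 for RUNX1. Which gene differed more between the states was not tested.

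The RUNX2 site, at 45501240 to 45501389 of chromosome 6, had 0 reads in senescent cells and 29 in proliferating cells (19.4 to 41.6). Its deposited fold, which runs the other way as proliferating over senescent, was 1143, and 79 of the 400 proliferating-only sites had a higher one. With the 29 reads taken as counted, the proliferating level was at least 11.6-fold higher than the senescent floor of 3 reads, and the exact conditional 95% interval of the ratio began at 8.85. With 29 reads it was the least covered of the 4 sites, and 163 proliferating-only sites had at least as many.

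**Figure D1:**
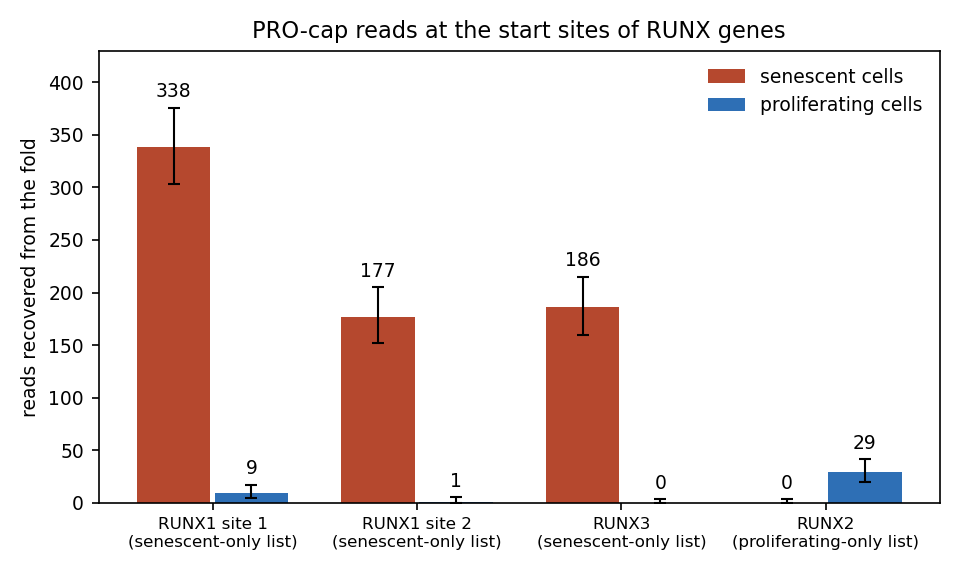
Reads recovered from the deposited folds at each RUNX site (y axis, number of reads) in senescent and proliferating cells. Bars are read numbers and error bars exact Poisson 95% intervals, with 1 value per state, from samples not given, and no replicates. The RUNX1 sites (338 and 177) and the RUNX3 site (186) have most of their reads in senescent cells, and the RUNX2 site has 29 in proliferating cells and none in senescent cells (0).

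By reads of their own state the senescent-only RUNX sites stood high in their list. RUNX1 site 1 ranked 14th of 849, and RUNX3 and RUNX1 site 2 ranked 47th and 49th, where the median site had 32 reads. RUNX2 ranked 162nd of 400, where the median was 24. By fold, RUNX1 site 1 ranked 594th and site 2 469th. The difference follows from the reads of the other state: of the 49 senescent-only sites with at least 177 reads, 7 had no proliferating read (14.3%), and RUNX3 was one of them. Over the whole lists, 470 senescent-only sites (55.4%) had no proliferating read and 292 proliferating-only sites (73.0%) had no senescent read. Of the 163 proliferating-only sites with at least the 29 reads of RUNX2, 81 had no senescent read (49.7%). A lack of reads of the other state was thus common among sites with at least the reads of RUNX2. It was less so among the senescent-only sites with at least 177 reads. The 3 sites held 701 of the 50266 senescent reads of their list (1.39%) and were 0.353% of its sites. The RUNX2 site held 29 of the 16906 proliferating reads of its list (0.172%) and was 0.25% of its sites. These totals add the reads of every site, and where sites of a list overlap a read may count more than once.

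**Figure D2:**
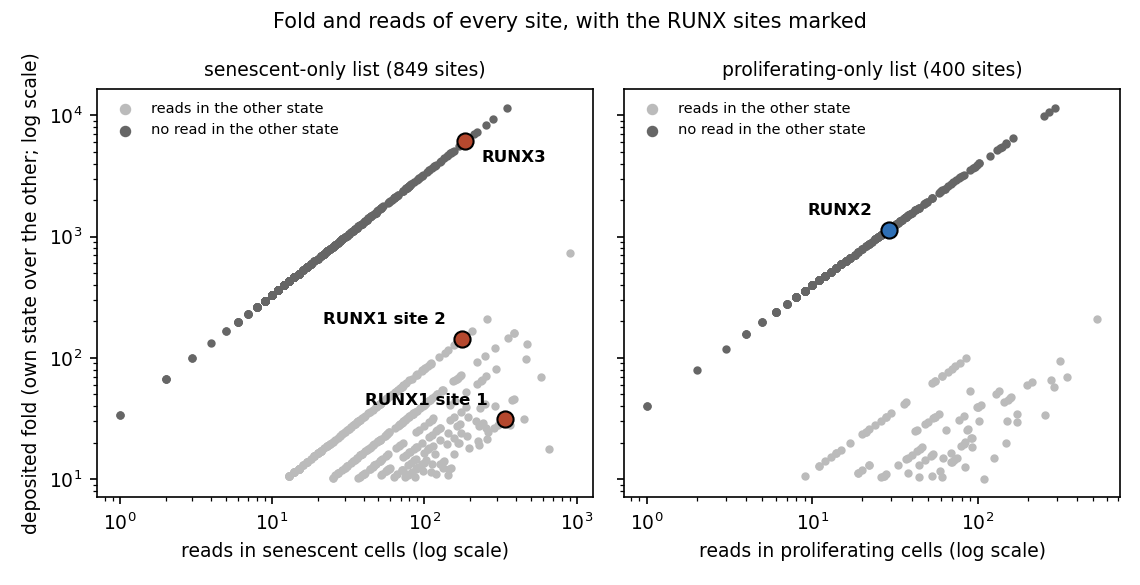
Deposited fold (y axis, log scale) against reads in the site's own state (x axis, log scale) for every site of the senescent-only list (left) and the proliferating-only list (right), with RUNX sites as large coloured points. Dark points have no read in the other state and form the upper line, on which RUNX3 (186 reads) and RUNX2 (29 reads) lie; both RUNX1 sites lie far below it although site 1 has the most reads of the 4 (338).

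None of the RUNX sites was near an annotated transcript start. All 4 lay in introns, overlapped no annotated exon of any transcript of their gene (0 for each site), and lay in no other annotated gene (0 for each site). The nearest annotated start of RUNX1 lay 21.2 kb upstream of site 1 and 21.0 kb upstream of site 2, and the nearest one of the basic transcript set lay 78.4 and 78.2 kb away. The RUNX3 site lay 17.6 kb from the nearest RUNX3 start of any transcript and 19.1 kb from the nearest of the basic set. The RUNX2 site was 111 kb from the nearest RUNX2 start and 43.2 kb from a start of RUNX2-AS1, an antisense transcript.

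The place within the coding structure was alike in the 3 genes. In the MANE Select transcript, the reference transcript agreed between annotation projects, every site had exactly 2 coding exons after it. The RUNX1 sites were in intron 7 of 8 of this transcript (36171760 to 36206706, 34.9 kb), with 635 of 1440 coding bases after them (44.1%). The RUNX2 site was in intron 7 of 8 (45480145 to 45512953, 32.8 kb), with 542 of 1563 coding bases after it (34.7%). The RUNX3 site was in intron 3 of 4 (25233909 to 25245730, 11.8 kb), with 701 of 1245 coding bases after it (56.3%).

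All 4 sites also lay in the later part of their intron, 73.3% and 72.8% of the way in RUNX1, 64.5% in RUNX2 and 68.0% in RUNX3. Among all sites in introns of 1 MANE Select coding transcript, 71 of 685 senescent-only sites (10.4%) and 48 of 298 proliferating-only sites (16.1%) had 2 coding exons after them, and the median way into the intron was 56.6% and 54.1%. This feature was noticed after the sites were seen, the RUNX1 sites share 1 intron, and no test was made.

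The introns were not the same one by exon lengths. The coding exons of 157 and 105 bases, which with the exon before them encode the Runt domain, were present in all 3 genes and preceded every site. The exons that followed were of 162 and 473 coding bases in RUNX1, 159 and 542 in RUNX3, and 66 and 476 in RUNX2, where a 162-base exon came before the site. The sequence after the sites codes for part of the protein past the Runt domain, where transactivation and the carboxyl-terminal corepressor motif reside. The strand column of the lists holds + for every site and does not say in which direction these starts run.

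**Figure D3:**
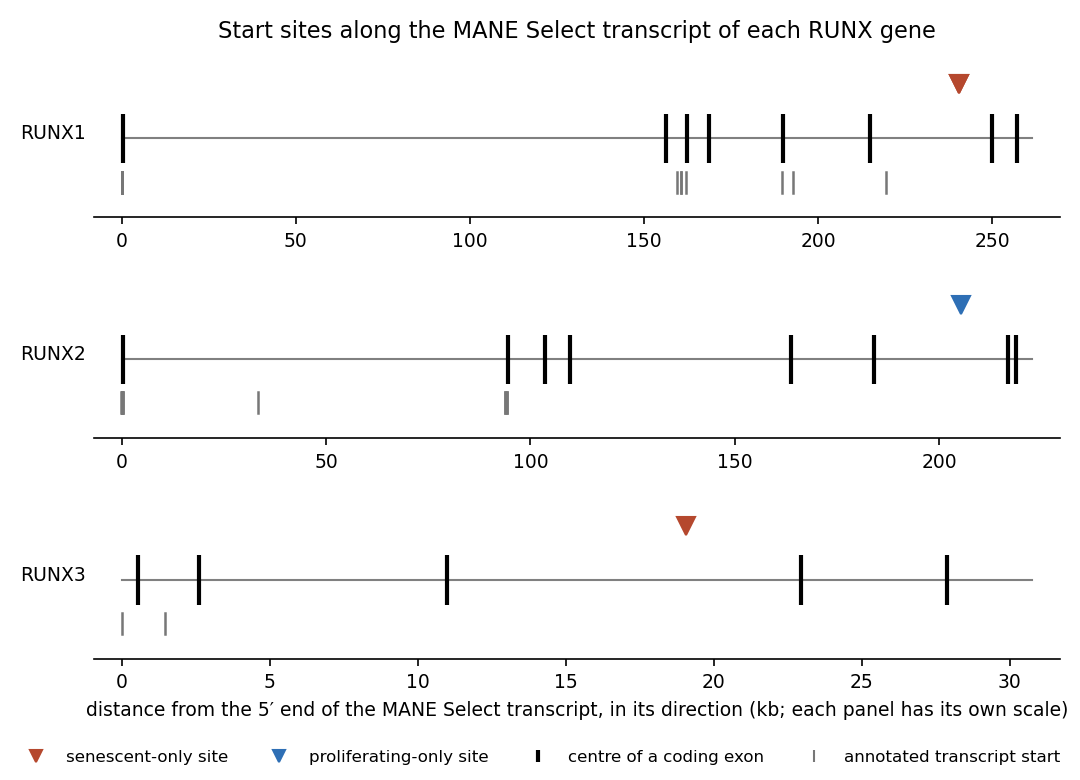
Start sites (triangles) along the MANE Select transcript of RUNX1, RUNX2 and RUNX3 (x axis, distance from the transcript's 5′ end in its own direction in kb; each panel has its own scale), with the centres of coding exons as black bars and annotated transcript starts within this stretch as grey ticks. The 2 RUNX1 sites are 182 bases apart and appear as 1 triangle; every site lies before the last 2 coding exons and away from the ticks, and the last 2 coding exons of RUNX2 stand close together.

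Along the MANE Select transcript the RUNX1 sites lay at 92.0% and 91.9% of its 261.5 kb, the RUNX2 site at 92.1% of 222.8 kb and the RUNX3 site at 62.0% of 30.77 kb. A place past the midpoint was common to the lists, at 90.4% of senescent-only and 86.2% of proliferating-only sites in such introns. Of the annotated transcripts, 6 of 18 spanned the RUNX1 sites, 10 of 12 the RUNX2 site and 4 of 5 the RUNX3 site. The nearest annotated transcript end to the RUNX1 sites was that of a shorter transcript, which stops 12.5 and 12.3 kb before them.

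RUNX1 differed from the other genes in having a pair of sites. Of the senescent-only list, 43.5% of sites had another site of the list within 500 bases. The RUNX3 site had no other senescent-only site within 5680 kb, and the RUNX2 site no other proliferating-only site within 1420 kb; 20.1% of senescent-only and 25.2% of proliferating-only sites had none within 1 Mb. Outside the gene spans, the nearest senescent-only and proliferating-only sites lay 1350 and 243 kb from RUNX1. They lay 2230 and 1210 kb from RUNX2, and 5670 and 600.0 kb from RUNX3. The RUNX1 distances are from its full span of 1217 kb, of which basic protein-coding transcripts cover 261.5 kb. From the RUNX1 sites themselves the nearest proliferating-only site was 1440 kb away. No RUNX gene held sites of both states, though RUNX2 and RUNX3, with 1 site each, could not. Among all genes 16 of the 615 with any site held both (2.6%), and these 615 also include genes with 1 site.

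A RUNX motif, the core sequence that the Runt domain binds, was present in 1 of the 4 sites. It lay in the RUNX3 site, as ACCACA on the plus strand (TGTGGT on the minus strand) at 25237675 to 25237680. This is 18 bases from the midpoint of the site on the side of the lower coordinates, which is downstream in the direction of RUNX3. TGTGGT thus reads in the same direction as RUNX3, which is annotated on the minus strand. Neither RUNX1 site nor the RUNX2 site had one in 200 bases (0 each). For background, the motif was found in 161 of 849 senescent-only sites (19.0%, Wilson 95% interval 16.5 to 21.7), in 59 of 400 proliferating-only sites (14.8%, 11.6 to 18.6) and in 4591 of 35116 RefSeq promoters of 300 bases (13.1%, GRCh38.p14). The intervals take sites as separate, although neighbouring sites can share bases. With 1 site per region joined within 10 kb, the RUNX shares were 19.4% (16.2 to 23.1) of senescent-only and 13.9% (10.1 to 18.8) of proliferating-only sites. The longer TGTGGTT was in 0 of the RUNX sites, in 7.42% of senescent-only sites and in 5.75% of proliferating-only sites.

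No RUNX site held an AP-1 motif, bound by FOS and JUN, or a TATA box (0 of 4 each). AP-1 motifs were in 18.4% of senescent-only sites (15.9 to 21.1) and 10.0% of proliferating-only sites (7.43 to 13.3), TATA boxes in 12.4% and 13.2%. RefSeq promoters held them in 4.95% and 11.5% of cases. With 1 site per region joined within 10 kb, the AP-1 shares were 18.4% (15.3 to 22.0) of senescent-only and 9.84% (6.7 to 14.2) of proliferating-only sites. Motifs chosen after the data were examined were the TEAD motif GGAATG, in 0 of 4 RUNX sites and in 17.8% of senescent-only and 18.8% of proliferating-only sites, and the C/EBP motif TTNCNNAA. The C/EBP motif had 2 matches in the RUNX2 window and 1 in that of RUNX1 site 1, the last at 36181151 to 36181158, just outside the deposited site. It was thus in 2 of the RUNX windows, against 1 in the 150 bases of the sites and 3 in 400 bases, and was common, in 41.2% of senescent-only and 39.0% of proliferating-only sites. RefSeq promoters held the TEAD motif in 14.0% and the C/EBP motif in 36.8% of cases. These matches say that letters are present in a window and not that a factor is bound.

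Each RUNX site had a lower GC content than at least 4 of the 5 RUNX promoters in the RefSeq table, and the RUNX2 site than all 5. The promoters are 300 bases long and the windows at the sites 200. GC content was 50% and 47.5% at the RUNX1 sites, 54.0% at the RUNX3 site and 41.0% at the RUNX2 site, with 5, 1, 4 and 4 CpG dinucleotides in 200 bases. The medians were 45.5% GC and 2 CpG for senescent-only sites, and 47.2% GC and 3 CpG for proliferating-only sites. The RefSeq promoter table held 1 promoter of RUNX1 with 72.0% GC, 2 of RUNX2 with 42.7% and 76.0%, and 2 of RUNX3 with 66.3% and 76.0%.

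Among 39 partners and cofactors of RUNX proteins, 4 genes (10.3%) held 6 senescent-only sites and 4 others (10.3%) held 5 proliferating-only sites; CBFB, the obligate partner, was not among them. Many of these genes are long, and of the 24 with at least 100 kb the shares were 16.7% each, beside 7.77% and 3.63% of all genes of that length. Each share rests on 4 genes, and the partners were listed with earlier results of these data known, so nothing is read from the difference. ETS1, an ETS factor that binds DNA together with RUNX1, had a site with 112 reads in senescent cells and 0 in proliferating cells and another with 64 and 0. TLE1, a Groucho corepressor that RUNX proteins recruit, had 2 overlapping sites with 68 and 41 reads in senescent cells and 2 and 0 in proliferating cells.

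Each proliferating-only site of the partners had fewer reads than the 29 of RUNX2. CBFA2T3, a corepressor of the ETO family, had 2 overlapping sites with 0 reads in senescent cells and 27 and 11 in proliferating cells. HDAC4, a deacetylase that restrains RUNX2, and TCF7L2, a Wnt effector, had 0 reads in senescent cells and 13 in proliferating cells each, and SMAD3, which carries the TGF-β signal, had 0 and 12. Of 22 known RUNX targets, TGFBR2, a TGF-β receptor, held a senescent-only site with 18 reads in senescent cells and 0 in proliferating cells, and none held a proliferating-only site (0). These shares of 4.55% and 0% of a short list are set beside 2.04% and 1.09% of all protein-coding genes, and nothing is read from them. None of the 7 blood, 3 endothelial, 4 epithelial or 3 osteoblast markers in the annotation held a site of either list (0 in each), and the 3 osteoblast markers are also among the targets. At the shares of all genes, lists this short would mostly hold no site.

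By number of sites per list and then by highest fold, the genes most like RUNX1 were ARSG, a lysosomal sulfatase (fold 130), and PXK, a kinase-like protein (fold 198), out of 88 other genes with 2 senescent-only sites and no proliferating-only site. Those most like RUNX2 were AP2A1, a subunit of an endocytic adaptor (fold 1222), and RGS6, a regulator of G protein signalling (fold 1064), out of 120, and those most like RUNX3 were IL1RL2, an interleukin receptor subunit (fold 3217), and MARCHF4, a membrane ubiquitin ligase (fold 2626), out of 216. Likeness here rests on 1 fold per gene. It was looser for RUNX3, whose fold was 6104 (log10 differences 0.28 and 0.37). For RUNX1 the differences were 0.045 and 0.14, and for RUNX2 0.029 and 0.031.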

How the data were processed

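Capped nascent RNA starts of IMR90 cells were taken from deposited site lists. Of 4 deposited lists, 2 were distinct. Each holds a fold per site, a ratio between the states that the authors computed, and the list name gave its direction. Site calling, the samples behind each fold and the cutoffs are not given in the sources used here. The tools named, with no role, per the submitters' processing notes are HOMER, cutadapt 2.10, BWA 0.7.10, bedtools 2.27.1-65 and SAMtools 1.1; the builds are hg19 and mouse builds, and the lists are labelled hg19.

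Folds were decoded into whole reads with a pseudocount of 1 and a tolerance of 1e-06 of a read (849 of 849 and 400 of 400 decoded). The decoding was tested on simulated folds built by the same formula, which cannot show that the deposited folds have that form. Of 10000 random folds, 0.02% decoded as senescent-only folds and 0.01% as proliferating-only folds. Sites were placed by midpoint on GENCODE 44 lifted to GRCh37, which shares hg19 coordinates. Motifs were counted in 200 bases, on both strands. Python 3.11.15, numpy 2.4.6 and scipy 1.17.1 were used. Floors allow 3 reads for a count of 0. Scaled ratios assume that the steps bring both states to the same total. Genes were named by a rule: each RUNX gene, the 2 genes most like it, and members of the lists with a site. Members and lists were chosen with earlier results of these data known. Alternatives covered gene span, flank, joining, reads and motif window. No comparison was tested, since the lists chose the members. Values of some listed partner genes are not reported here.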

Additional observations from a re-analysis of the deposited data

How the results depend on the processing

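The counts of 3 senescent-only and 1 proliferating-only RUNX sites held with no flank, a flank of 10 kb, spans of basic protein-coding transcripts and any overlap, and the senescent-only sites formed 2 regions when joined within 500 bases or 10 kb. Of the senescent-only sites 1, that of RUNX3, had no proliferating read, and the same number, again RUNX3, a fold at or above its list's median. Ranked by reads in place of fold, the share of the list at or above a site was 1.65% for RUNX1 site 1 (70.0% by fold), 5.77% for RUNX1 site 2 (55.2%), 5.54% for RUNX3 (0.707%) and 40.8% for RUNX2 (20.2%). For RUNX3 it was 1.28% when only sites lacking any read of the other state were ranked. In 400 bases 1 RUNX site held an AP-1 motif and 1 a TATA box, and with TGTGGTT 0 held a RUNX motif. The share of sites with a RUNX motif was 15.2% of senescent-only sites in 150 bases, 31.3% of senescent-only and 24.0% of proliferating-only sites in 400 bases, and 7.42% and 5.75% for TGTGGTT. Genes with a senescent-only or a proliferating-only site were 7.77% and 3.63% of genes of at least 100 kb and 5.2% and 2.43% of genes of at least 50 kb. The 50 kb limit and the TEAD, C/EBP and TGTGGTT searches of RUNX sites were chosen after seeing the data. A RefSeq span was not run because that table is on another build. No paired analysis was possible because each site has 1 value per state and none per sample; leaving out a replicate was not possible either. At 29 reads or fewer, as in RUNX2, the depth limits the bound that can be given.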
